A study of Mus musculus with 4 samples.

Results

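The Myc, Max and Mad network was read in the RNA of murine 4T1 cells, as the 9 genes Myc, Mycn, Mycl, Max, Mnt, Mxd1, Mxd3, Mxd4 and Mlx out of 49585 genes measured. The members were matched by gene symbol, each to 1 gene. The 4T1 line is a mouse model of triple-negative breast cancer (TNBC). Bulk RNA-seq covered 2 lines grown by limiting dilution from single 4T1 cells, 4T1-HM with a high and 4T1-LM with a low metastatic capacity, so each line is 1 clone. Each clone was grown in six-well plates for 48 h with 50 μmol/L of the oral iron chelator deferasirox (DFX) dissolved in DMSO, or with DMSO alone. The resulting libraries were HM_DFX, HM_Ctrl, LM_DFX and LM_Ctrl, with 1 library per condition. No difference between them therefore has a replicate check, no p-value is given, and the intervals printed are 95% intervals for counting error alone.

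Myc, Mycn and Mycl encode transcription factors that bind DNA only when paired with Max. A Myc and Max pair binds the E-box sequence CACGTG and raises transcription of genes for growth, ribosome production, nucleotide synthesis and glycolysis. The Mad proteins, encoded by Mxd1, Mxd3, Mxd4 and the related gene Mxi1, and the protein encoded by Mnt compete for Max, bind the same sequence and recruit Sin3 and histone deacetylases, which lower transcription. Mlx is a Max-like partner that pairs with some Mad proteins, with Mnt, and with the glucose-sensing Mondo factors encoded by Mlxip and Mlxipl. Mxd1 and Mxd4 are known for rising as cells leave the cycle and differentiate, and Mxd3 for its expression in the S phase of dividing cells.

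The E-box is printed here because it is the sequence through which the members act, and because some members carry it near their own start. RefSeq promoter windows of build GRCm38.p6, from 250 bases before to 50 bases after the gene start, were found for 8 of the 9 members. Myc was the member without a window, so its promoter was not searched. The palindrome CACGTG, the same on both strands, was present in the windows of 4 of the 8, which were Max, Mnt, Mxd4 and Mlx. It was present in 7.15% of all 32851 windows and in 12.1% of the 8340 expressed protein-coding genes that have a window. Each match is shown 5′ to 3′ along the strand of its gene, with 10 bases on either side and the motif in capitals:
Max, chr12:76962236-76962261, minus strand: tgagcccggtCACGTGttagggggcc
Mnt, chr11:74830791-74830816, plus strand: ccacccaagcCACGTGtgcgcgcgcg
Mxd4, chr5:34187914-34187939, minus strand: gctgggccacCACGTGctgttgctaa
Mlx, chr11:101087240-101087265, plus strand: tgggttggatCACGTGactgagcctc
The 5 lists of genes known to be activated by Myc, described further on, held the motif in 19 of the 76 genes that have a window. Cdk4, the kinase gene of the G1 phase, carried 4 matches in its window, and these are shown because no other member, partner or list example searched for single sites held as many:
Cdk4, chr10:127063353-127063378, plus strand: ggcagccagtCACGTGccacacagcg
Cdk4, chr10:127063407-127063432, plus strand: gtcaaggggtCACGTGggatagcaac
Cdk4, chr10:127063427-127063452, plus strand: agcaacaggtCACGTGgccgtcaggg
Cdk4, chr10:127063514-127063539, plus strand: gggtgaagatCACGTGtccagaacgt
A match is a description of the window, and binding was not measured.

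The authors deposited FPKM, the fragments on a gene scaled to the length of its exons and to the fragment total of the library, with coordinates of build mm10. Whole fragments could be recovered from these values, and the libraries held between 14363066 and 21883855 fragments. A gene counted as expressed where some library reached 1 FPKM, which left 12669 genes and 8 of the 9 members. Mycl passed only through the DFX libraries, so a rise in it was partly set by the filter. In the text a ratio is that of the deposited FPKM, with its counting interval from the fragments. A log2 change is log2 of the ratio of FPKM + 1, a scale that understates the change of low genes, and a gene was called at 2-fold on that scale. FPKM are relative to the library, so a change in the total RNA per cell cannot be seen. Of 8 markers of mammary carcinoma cells, 7 had an FPKM of at least 1, and Krt5 was at 0. Their summed FPKM was between 565 and 2298 and was lower in both DFX libraries than in both DMSO libraries, and the part of this in the results below was not tested. The 4 leukocyte markers summed to at most 0.0139, the 3 endothelial markers to at most 0.188 and the 2 adipocyte markers to 0. Of the 3 fibroblast markers only Pdgfra reached an FPKM of 1, and of the receptors that define TNBC, Pgr was at 0, Esr1 at most at 0.529 and Erbb2 between 3.80 and 12.5.

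**Figure D1:**
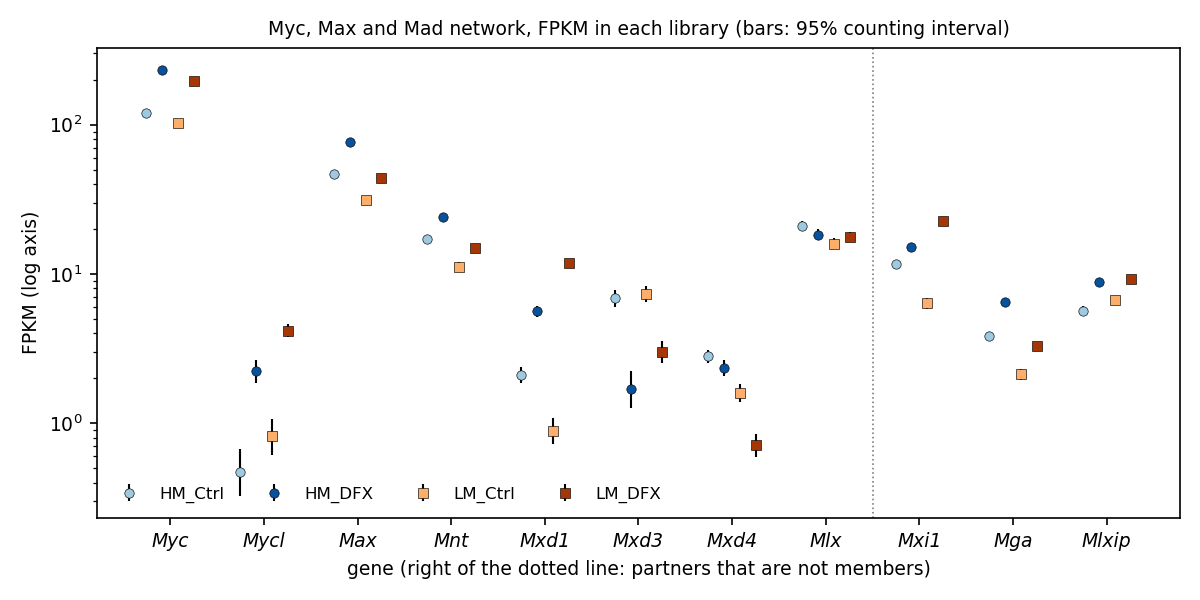
FPKM (log axis) of 8 members and, right of the dotted line, 3 partners in each of the 4 libraries, with circles for 4T1-HM, squares for 4T1-LM, dark colours for DFX and bars for the 95% counting interval. Myc was the highest gene in every library, between 103 and 231, and Mycn, at 0 in all libraries, is not drawn.

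The RNA of Myc was abundant in both clones and higher with DFX. Myc (ENSMUSG00000022346, chromosome 15 from 61985391 to 61990374) stood at 119 FPKM in HM_Ctrl and 231 in HM_DFX, and at 103 in LM_Ctrl and 196 in LM_DFX, from 5420, 9007, 4382 and 11676 fragments. Both DFX libraries were above both DMSO libraries, and no counting intervals overlapped. In HM_DFX the level was 1.94 times that of HM_Ctrl (interval 1.87 to 2.00), a log2 change of 0.95. In LM_DFX it was 1.92 times that of LM_Ctrl (1.85 to 1.98), a log2 change of 0.93. Both changes were just under the 2-fold threshold. Median-ratio scaling, which evens out the typical gene across the libraries, gave 1.09 in HM, past the threshold, and 0.98 in LM. The responses of the clones differed by 0.02 on the log2 scale without a pseudocount, with a counting interval from −0.05 to 0.09. Myc stood above 97.2% of expressed genes in HM_Ctrl and above 98.6% in HM_DFX. Between the clones it was 1.16 times higher in HM_Ctrl than in LM_Ctrl (1.12 to 1.21) and 1.18 times higher in HM_DFX than in LM_DFX (1.14 to 1.21). The values are RNA, and the amount of Myc protein, which turns over quickly, cannot be read from them.

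Pvt1, a long noncoding RNA gene next to Myc, was looked up after the value of Myc was seen. Pvt1 (ENSMUSG00000097039, chromosome 15 from 62037986 to 62378096) stood at 3.16 FPKM in HM_Ctrl and 6.91 in HM_DFX, a ratio of 2.19 (1.92 to 2.49). It had 3.35 in LM_Ctrl and 8.69 in LM_DFX, a ratio of 2.59 (2.31 to 2.92). As with Myc, both DFX libraries were above both DMSO libraries.

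The other genes of the Myc family added little to the total. Mycl (ENSMUSG00000028654, chromosome 4 from 122995652 to 123002485) encodes L-Myc and stood at 0.473 FPKM in HM_Ctrl and 2.22 in HM_DFX, and at 0.819 in LM_Ctrl and 4.18 in LM_DFX. Its DFX libraries were above its DMSO libraries in both clones, by 4.70 times in HM (3.17 to 7.16) and by 5.10 times in LM (3.81 to 6.96). The DMSO values rested on 32 and 52 fragments. Mycl was past 2-fold in both clones, with log2 changes of 1.13 and 1.51. Mycn (ENSMUSG00000037169, chromosome 12 from 12936096 to 12941914), which encodes N-Myc, had no fragment in any library, where 3 fragments, the floor taken for a count of 0, would be 0.0634 FPKM in HM_DFX, the library of lowest depth. Myc thus held between 97.9% and 99.6% of the summed FPKM of its family.

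Max, the obligate partner, was higher with DFX in both clones and higher in 4T1-HM than in 4T1-LM. Max (ENSMUSG00000059436, chromosome 12 from 76937269 to 76962248) stood at 46.5 FPKM in HM_Ctrl and 76.7 in HM_DFX, and at 31.5 in LM_Ctrl and 44.1 in LM_DFX. HM_DFX was highest and LM_Ctrl lowest, while the counting intervals of HM_Ctrl (44.2 to 48.9) and LM_DFX (42.1 to 46.1) overlapped. The DFX ratio was 1.65 in HM (1.54 to 1.76) and 1.40 in LM (1.30 to 1.51), and the log2 changes of 0.71 and 0.47 did not reach 2-fold. The ratio of HM to LM was 1.48 under DMSO (1.36 to 1.60) and 1.74 under DFX (1.64 to 1.85).

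Mnt, the most abundant of the 4 member repressors in each library, followed the same order of libraries as Max. Mnt (ENSMUSG00000000282, chromosome 11 from 74830920 to 74845725) stood at 17.1 FPKM in HM_Ctrl and 24.0 in HM_DFX, and at 11.2 in LM_Ctrl and 14.9 in LM_DFX. The DFX ratio was 1.41 in HM (1.31 to 1.52) and 1.33 in LM (1.22 to 1.45), under 2-fold in both clones. The difference between the clones in this response, 0.08 on the log2 scale, had a counting interval from −0.08 to 0.24.

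The DFX response of Mxd1 was the one that differed most between the clones among the members. Mxd1 (ENSMUSG00000001156, chromosome 6 from 86647042 to 86669161) encodes Mad1 and stood at 2.11 FPKM in HM_Ctrl and 5.62 in HM_DFX, and at 0.890 in LM_Ctrl and 11.9 in LM_DFX, from 250, 571, 99 and 1847 fragments. Both DFX libraries were above both DMSO libraries. The ratio was 2.66 in HM (2.29 to 3.10) and 13.4 in LM (11.0 to 16.6), with log2 changes of 1.09 and 2.77. Under DMSO the clone HM was higher, by 2.37 times (1.87 to 3.03), and under DFX the clone LM was higher, by 2.12 times (1.93 to 2.34). The response of HM minus that of LM was −1.69 on the log2 scale of FPKM + 1, and Mxd1 was the only member past 2-fold in this difference. Among expressed genes 8.9% were past 2-fold in it, 3.52% with the higher and 5.38% with the lower response in HM. With 1 library per condition this difference could not be tested.

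Mxd3 and Mxd4 went the other way. Mxd3 (ENSMUSG00000021485, chromosome 13 from 55325168 to 55329758) stood at 6.86 FPKM in HM_Ctrl and 1.71 in HM_DFX, and at 7.36 in LM_Ctrl and 3.01 in LM_DFX. Both DFX libraries were below both DMSO libraries, by 4.02 times in HM (2.96 to 5.55) and by 2.45 times in LM (1.98 to 3.04). Under DMSO the clones did not differ beyond counting error, with a ratio of 0.93 (0.78 to 1.12). In HM_DFX the value rested on 51 fragments. Exons of Mxd3 share 105 bases with Prelid1 on the opposite strand, a gene with an FPKM between 217 and 332, and the use of strand in counting is not given in the sources used here.

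Mxd4 (ENSMUSG00000037235, chromosome 5 from 34173883 to 34187720) stood at 2.82 FPKM in HM_Ctrl and 2.35 in HM_DFX, and at 1.60 in LM_Ctrl and 0.711 in LM_DFX. Each DFX library was below its DMSO library, and both HM libraries were above both LM libraries. The DFX ratio was 0.83 in HM (0.71 to 0.97) and 0.45 in LM (0.36 to 0.56). The log2 changes, −0.19 and −0.60, stayed under 2-fold, and only with a pseudocount of 0.1 did LM reach −1.06. The ratio of HM_DFX to LM_DFX was 3.30 (2.68 to 4.09).

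Mlx (ENSMUSG00000017801, chromosome 11 from 101087277 to 101092207) varied least. It stood at 21.1 FPKM in HM_Ctrl and 18.3 in HM_DFX, and at 16.0 in LM_Ctrl and 17.8 in LM_DFX. The DFX ratio was 0.87 in HM (0.77 to 0.97) and 1.11 in LM (1.00 to 1.25). Of its 31-base stretches, 17.1% also occur in another gene, mostly in Psmc3ip, whose exons overlap 385 of its 1999 exon bases on the opposite strand.

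**Figure D2:**
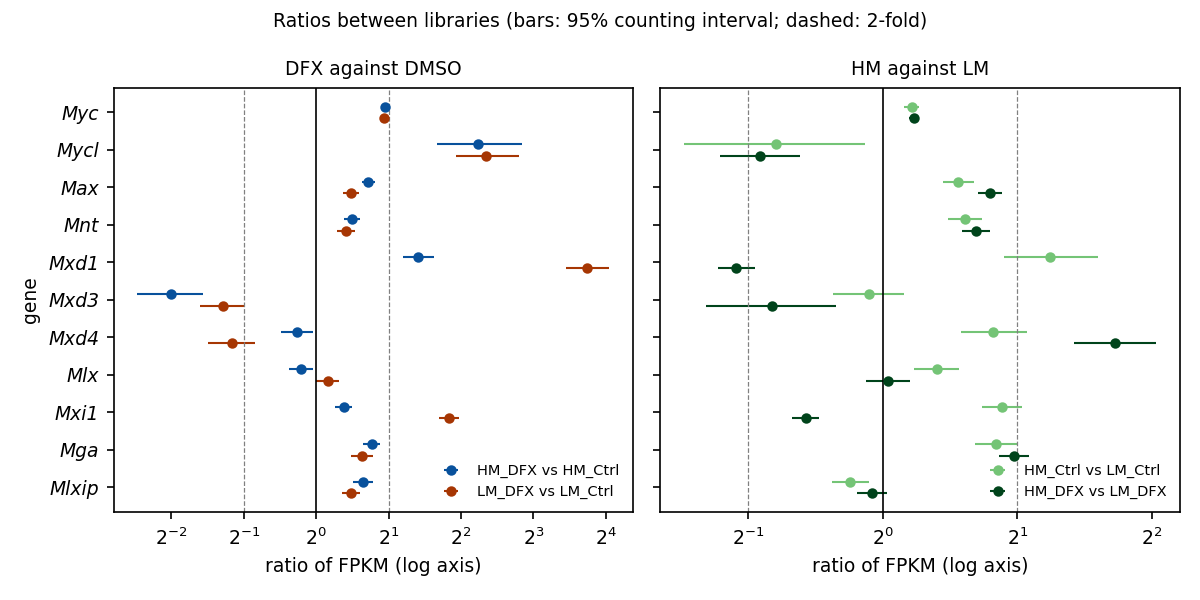
Ratios of FPKM (log axis) for 8 members and 3 partners, DFX against DMSO in each clone (left) and 4T1-HM against 4T1-LM under each treatment (right), with bars for the 95% counting interval and dashed lines at 2-fold. The points of Myc for both clones coincide near 1.9, while those of Mxd1 lie at 2.66 for HM and 13.4 for LM.

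By counts, 2 members were at least 2-fold higher in HM_DFX than in HM_Ctrl (Mycl and Mxd1) and 1 was at least 2-fold lower (Mxd3). Among the 12669 expressed genes, 6.93% were higher and 12.4% lower by that measure, 19.3% in all. The same 3 members, in the same directions, were past 2-fold in LM_DFX against LM_Ctrl, where 7.09% of expressed genes were higher and 8.72% lower, 15.8% in all. With so few members these shares give no result about the set. Without drug no member was past 2-fold between the clones, where 3.65% of expressed genes were higher and 3.15% lower in HM_Ctrl, 6.8% in all. Under DFX no member was past 2-fold either, against 3.31% higher and 5.05% lower, 8.36% in all, with Mxd4 at a log2 change of 0.97 and Mxd1 at −0.97, just inside the threshold. Without the pseudocount the ratios of Mxd1 between the clones, and that of Mxd4 under DFX, were over 2, as given above. The median of all expressed genes was −0.10 in HM_DFX against HM_Ctrl and −0.04 in LM_DFX against LM_Ctrl. The median-ratio scaling moved the first of these to 0.00 and the share of higher genes among all calls from 35.9% to 46.9%, and left the sign of every member as it was.

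The remaining genes of the network, which are not members, were read from a separate list. Mxi1 (ENSMUSG00000025025), which encodes the Mad protein Mxi1, stood at 11.7 FPKM in HM_Ctrl and 15.2 in HM_DFX, and at 6.35 in LM_Ctrl and 22.6 in LM_DFX. Its order was that of Mxd1, with HM higher under DMSO and LM higher under DFX, and DFX ratios of 1.30 in HM (1.20 to 1.41) and 3.57 in LM (3.26 to 3.91). Mga, a large protein that also pairs with Max and acts as a repressor, stood at 3.82 FPKM in HM_Ctrl and 6.51 in HM_DFX, and at 2.13 in LM_Ctrl and 3.31 in LM_DFX. Mlxip, which encodes MondoA, had 5.65, 8.83, 6.67 and 9.31 in the same libraries. Mlxipl, which encodes ChREBP, had 2 fragments in LM_DFX and 0 elsewhere. All 3 expressed genes of this list were higher with DFX in both clones, as were 43.7% of all expressed genes in HM and 46.8% in LM. Of the 3, Mxi1 was past 2-fold, in LM, as were 7.09% of all expressed genes upward there.

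The balance of the members was read as sums of FPKM. The Myc family summed to 120 in HM_Ctrl and 233 in HM_DFX, against 103 in LM_Ctrl and 201 in LM_DFX, and the repressors Mnt, Mxd1, Mxd3 and Mxd4 to 28.9, 33.7, 21.03 and 30.5. Their ratio to the Myc family was 0.241 in HM_Ctrl (0.229 to 0.254) and 0.145 in HM_DFX (0.138 to 0.151), against 0.204 in LM_Ctrl (0.191 to 0.217) and 0.152 in LM_DFX (0.146 to 0.158). Both DFX libraries thus had fewer repressor transcripts per Myc transcript than both DMSO libraries. With Mxi1 and Mga added, the ratio was 0.371 in HM_Ctrl and 0.238 in HM_DFX, but 0.286 in LM_Ctrl and 0.282 in LM_DFX, so that the LM libraries were then nearly level while the HM libraries were not. Max per Myc family transcript was 0.389 in HM_Ctrl and 0.329 in HM_DFX, against 0.305 in LM_Ctrl and 0.220 in LM_DFX.

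Among the member repressors Mnt, Mxd1, Mxd3 and Mxd4, a sum that leaves out Mxi1 and Mga, the makeup differed with DFX. Mxd3 held 23.8% of their sum in HM_Ctrl and 5.06% in HM_DFX, against 35.005% in LM_Ctrl and 9.85% in LM_DFX. Mxd1 held 7.31% and 16.7% in HM, and 4.23% and 39.1% in LM. Mnt held 59.1% in HM_Ctrl and 71.3% in HM_DFX, against 53.2% in LM_Ctrl and 48.7% in LM_DFX. The rise in the share of Mxd1 and the fall in that of Mxd3 were thus seen in both clones. The share of Mnt rose in HM alone, and there by more than that of Mxd1.

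**Figure D3:**
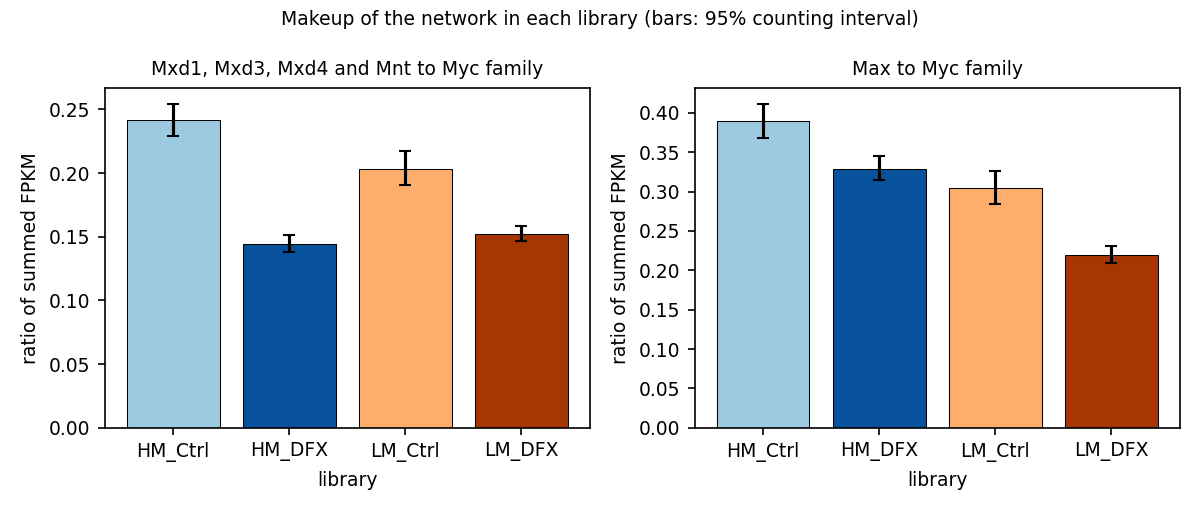
Ratio of the summed FPKM of Mxd1, Mxd3, Mxd4 and Mnt (left) and of the FPKM of Max (right) to the summed FPKM of the Myc family, 1 bar per library, with 95% counting intervals. The left bars are lower with DFX in both clones, at 0.145 in HM_DFX and 0.152 in LM_DFX.

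For the profile of Myc over the 4 libraries, the protein-coding genes closest to it were sought among 6294 genes that reached 10 FPKM in some library. Likeness was the Euclidean distance between profiles of log2 FPKM + 1 centred on their means. The 5 nearest were Ddx50 (distance 0.0657), Rbm22 (0.0861), Rsbn1 (0.0954), Lrrc8d (0.1001) and Gfpt1 (0.101). Ddx50, which encodes an RNA helicase of the nucleolus, stood at 32.2 FPKM in HM_Ctrl and 65.6 in HM_DFX, and at 26.9 in LM_Ctrl and 53.7 in LM_DFX. With 4 points per profile this likeness is a description only.

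Genes that Myc is known to regulate were read from lists written from general knowledge. The 5 lists of activated genes held 91 expressed genes, of which 2 were at least 2-fold higher and 5 lower in HM_DFX against HM_Ctrl, and 4 higher and 4 lower in LM_DFX against LM_Ctrl. Over all expressed genes the shares were 6.93% and 12.4% in HM and 7.09% and 8.72% in LM. Their median log2 change was −0.02 in HM, beside −0.10 for all expressed genes, and −0.31 in LM, beside −0.04. In HM_Ctrl against LM_Ctrl the median was −0.31, beside 0.01, with 73 of the 91 genes below 0, beside 48.2% of all expressed genes. With DFX in HM, 44 of the 91 were above 0 and 47 below, beside 43.7% and 55.9% of all expressed genes. In LM 30 were above 0 and 61 below, beside 46.8% and 52.6%. A link of these counts to Myc RNA, 1.94 times higher with DFX in HM and 1.92 times in LM, was not tested. Median-ratio scaling turned the HM median under DFX to 0.12, with 6 genes higher and 3 lower, and left that of LM at −0.28. Genes past 2-fold that are named among the lists were, apart from the examples and the extremes of each list, picked after their values were seen.

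Ribosome biogenesis was, besides the Sin3 and HDAC list (medians of 0.02 in HM and −0.03 in LM), the list with medians of opposite sign. In HM_DFX against HM_Ctrl 22 of its 25 genes were above 0, beside 43.7% of all expressed genes, with a median log2 change of 0.47. In LM_DFX against LM_Ctrl 9 were above 0, beside 46.8% of all expressed genes, with a median of −0.24. Nop58, a core protein of small nucleolar RNA particles, was at 24.2 in HM_Ctrl and 56.4 in HM_DFX, a log2 change of 1.19, and at 30.7 and 42.1 in LM. Gnl3, a nucleolar GTPase, had a log2 change of 1.16 in HM and 0.47 in LM. Nop58 and Gnl3 were the 2 genes past 2-fold in HM, 8% of the list beside 6.93% of all expressed genes. Ncl, which encodes nucleolin, stood at 167 FPKM in HM_Ctrl and 195 in HM_DFX, and at 219 in LM_Ctrl and 164 in LM_DFX. The log2 changes of Fbl, the methyltransferase fibrillarin, were 0.36 in HM and 0.20 in LM, and those of Nop56 were 0.48 and 0.26. Npm1, which encodes nucleophosmin, had 0.10 in HM and −0.21 in LM. Ubtf, a factor of ribosomal RNA transcription, had the lowest value of the list in HM, −0.50, and −0.49 in LM. Under DMSO the list was lower in HM, with a median of −0.37 and 21 of 25 genes below 0, beside 48.2% of all expressed genes.

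Polyamine and nucleotide synthesis genes had a median of −0.31 in HM and −0.61 in LM under DFX. Cad, which starts pyrimidine synthesis, was the 1 gene past 2-fold in either clone, from 32.3 in HM_Ctrl to 14.2 in HM_DFX and from 40.2 in LM_Ctrl to 13.8 in LM_DFX. That is 5% of the list lower in each clone, beside 12.4% of all expressed genes in HM and 8.72% in LM. Odc1, the first enzyme of polyamine synthesis and a classical Myc target, stood at 302 FPKM in HM_Ctrl and 249 in HM_DFX, and at 325 FPKM in both LM libraries. Srm, spermidine synthase, had 66.0 in HM_Ctrl and 129 in HM_DFX, a log2 change of 0.96, or 1.10 and past 2-fold under median-ratio scaling, and 91.5 and 110 in LM (0.26). Shmt2, which feeds carbon units to nucleotide synthesis in mitochondria, had log2 changes of 0.70 in HM and 0.39 in LM. Between the untreated clones all 20 genes were lower in HM_Ctrl, as were 48.2% of all expressed genes. In this list 1 gene, Gart, was past 2-fold at −1.04, which is 5% of the list beside 3.15% of all expressed genes.

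Cell cycle targets had a median of −0.33 in HM and −0.50 in LM under DFX, with 13 and 12 of 15 genes below 0. Of all expressed genes, 55.9% in HM and 52.6% in LM were below 0. In HM 5 genes were above 0 under median-ratio scaling, against 2 without it, and E2f1 and Cdc25a were among those that turned. Ccnd1, which encodes cyclin D1, was the 1 gene past 2-fold in HM, with an FPKM of 293 in HM_Ctrl and 45.5 in HM_DFX, against 326 in LM_Ctrl and 78.3 in LM_DFX. Ccne1, which encodes cyclin E1, joined it in LM with a log2 change of −1.44. At least 2-fold lower were thus 6.67% of the list in HM and 13.3% in LM, beside 12.4% and 8.72% of all expressed genes. Cdk4, whose window carries the 4 motifs printed above, stood at 112 FPKM in HM_Ctrl and 63.7 in HM_DFX, and at 102 in LM_Ctrl and 88.6 in LM_DFX. Ccnd2, for cyclin D2, had log2 changes of 0.13 in HM and 0.41 in LM, Cdc25a, a phosphatase of cell cycle entry, −0.03 and −0.50, and E2f1 −0.03 and 0.28. The highest value in HM was that of the replication gene Mcm5, at 0.27. Id2, an inhibitor of differentiation factors, was the 1 gene past 2-fold between the clones, higher in HM by 1.37 under DMSO and 1.52 under DFX on the log2 scale. That is 6.67% of the list, beside 3.65% of all expressed genes under DMSO and 3.31% under DFX.

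The list of glycolysis and glutamine use, many genes of which are also targets of the hypoxia-inducible factor HIF, had a median of 0.15 in HM and 0.49 in LM. It also holds Ptbp1, Hnrnpa1 and the iron-uptake gene Tfrc, which encode no enzyme or transporter of these pathways. Slc2a1, the glucose transporter GLUT1, stood at 107 FPKM in HM_Ctrl and 207 in HM_DFX, and at 40.3 in LM_Ctrl and 231 in LM_DFX, with log2 changes of 0.95 and 2.49, and it was past 2-fold between the untreated clones (1.38). Ldha, lactate dehydrogenase A, had log2 changes of 0.35 and 0.79, and Slc7a5, an amino acid transporter, of 0.46 and 0.45. Eno1 had −0.13 in HM and 0.49 in LM. Past 2-fold in LM were Slc2a1, Hk2 (1.49), Gapdh (1.15) and Pgk1 (1.03) upward and Hnrnpa1 (−1.07) downward, and past 2-fold in HM were Pfkm (−1.25), Hnrnpa1 (−1.05) and Gapdh (−1.03), all lower. In LM these are 26.7% higher and 6.67% lower, beside 7.09% and 8.72% of all expressed genes. In HM 0% were higher and 20% lower, beside 6.93% and 12.4%. Under median-ratio scaling Hnrnpa1 (−0.91) and Gapdh (−0.90) in HM were no longer past 2-fold, Slc2a1 was (1.09), and Eno1 in HM turned to 0.01. Gapdh has many near-identical pseudogenes, and its FPKM of 7.06 to 22.9 is uncertain. Translation and folding genes had no gene past 2-fold, and medians of −0.09 in HM and −0.38 in LM. Median-ratio scaling turned the HM median to 0.05 and took Eef1e1 past 2-fold (1.11). In HM their range ran from Phb (−0.60), a mitochondrial scaffold protein, to Eef1e1 (0.97), a part of the tRNA synthetase complex. Eif4e, the cap-binding factor, had log2 changes of 0.39 in HM and −0.16 in LM, Eif4a1 −0.20 and −0.60, the mitochondrial chaperone gene Hspd1 −0.03 and −0.64, and Phb2 −0.29 and −0.38.

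**Figure D4:**
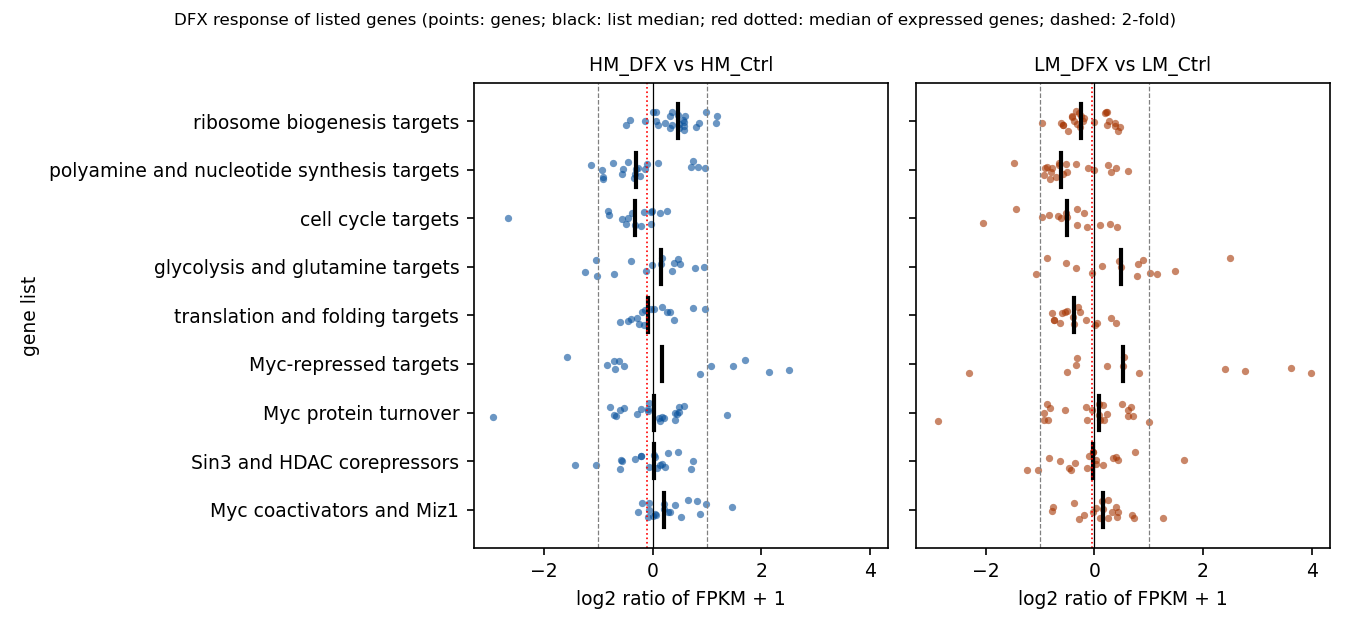
Log2 ratio of FPKM + 1 under DFX in 4T1-HM (left) and 4T1-LM (right) for the expressed genes of 9 lists, with each point a gene, black bars for list medians, a red dotted line for the median of expressed genes and dashed lines at 2-fold. Ribosome biogenesis genes have a median of 0.47 on the left and −0.24 on the right.

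Genes that Myc is known to repress moved in both directions. Of 12 expressed genes, 5 were at least 2-fold higher and 1 lower in HM_DFX against HM_Ctrl, and 4 higher and 1 lower in LM_DFX against LM_Ctrl, with medians of 0.18 and 0.53. These are 41.7% higher and 8.33% lower in HM, beside 6.93% and 12.4% of all expressed genes, and 33.3% and 8.33% in LM, beside 7.09% and 8.72%. Cdkn1a, which encodes the cyclin-dependent kinase inhibitor p21 and is also a p53 target, stood at 14.1 FPKM in HM_Ctrl and 84.5 in HM_DFX, and at 8.09 in LM_Ctrl and 61.3 in LM_DFX. Gadd45a, a stress gene, had 50.4, 142, 23.4 and 129 in the same libraries. Ndrg1, named for its repression by N-Myc and known as a HIF target, had 177, 577, 49.1 and 613. In each of these 3 genes both DFX libraries were above both DMSO libraries. The other genes past 2-fold were Gadd45b (2.14) and Klf6 (1.08) in HM and Ddit3 (3.99) in LM, all higher. Ddit3, which encodes the stress factor CHOP, differed most between the untreated clones, at 79.8 FPKM in HM_Ctrl and 6.05 in LM_Ctrl, and was at 148 in HM_DFX and 111 in LM_DFX. Thbs1, the angiogenesis inhibitor thrombospondin, was lower, with −1.59 in HM and −2.30 in LM. Cdkn2b, an example of this list, did not reach an FPKM of 1.

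Partners and regulators of the Myc and Mad proteins were read from 3 further lists. Among 19 corepressor genes of the Sin3 and HDAC complexes, with medians of 0.02 in HM and −0.03 in LM, Hdac1 was lower, from 26.9 to 12.6 in HM and from 28.2 to 13.1 in LM. Its log2 changes of −1.03 and −1.05 became −0.90 and −0.997 under median-ratio scaling, under 2-fold in both clones, and the list median in LM turned to 0.02. Brms1l (−1.44 in HM and −1.24 in LM) was also past 2-fold, and Sap30, a Sin3 subunit, was higher, with 0.74 in HM and 1.65 in LM. Of this list 10.5% were at least 2-fold lower in each clone, beside 12.4% of all expressed genes in HM and 8.72% in LM. At least 2-fold higher were 0% in HM and 5.26% in LM, beside 6.93% and 7.09%. The log2 changes of the scaffold Sin3a were −0.57 and −0.36, those of Sin3b 0.22 and 0.43, and those of Hdac2 0.13 and −0.03, the last of which turned to 0.02 under that scaling. The 19 coactivators and Miz1 had medians of 0.21 in HM and 0.15 in LM. Zbtb17, which encodes Miz1, the factor through which Myc represses genes such as Cdkn1a, was the 1 gene of this list past 2-fold in each clone. That is 5.26% of the list higher, beside 6.93% of all expressed genes in HM and 7.09% in LM. Zbtb17 stood at 8.13 FPKM in HM_Ctrl and 24.0 in HM_DFX, and at 6.41 in LM_Ctrl and 16.8 in LM_DFX. Trrap, a scaffold of acetyltransferase complexes, had log2 changes of −0.28 in both clones, Kat5 of 0.42 and 0.25, and Wdr5, which anchors Myc on chromatin, of 0.66 in HM and −0.03 in LM, the latter 0.02 under median-ratio scaling.

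Among 22 genes that act on Myc protein turnover, with medians of 0.02 in HM and 0.09 in LM, 2 were past 2-fold in HM and 1 in LM. In HM these are 4.55% higher and 4.55% lower, beside 6.93% and 12.4% of all expressed genes. In LM 4.55% were lower, beside 8.72%. The kinase gene Plk1, highly expressed in mitosis, stood at 56.0 FPKM in HM_Ctrl and 6.40 in HM_DFX, and at 78.1 in LM_Ctrl and 9.75 in LM_DFX. Usp36, a nucleolar deubiquitinase known to stabilise Myc, had 14.0, 37.9, 10.0 and 16.6, with a log2 change of 1.38 in HM and 0.67 in LM. Fbxw7, the ubiquitin ligase subunit that marks Myc for degradation, had log2 changes of 0.22 and −0.14, and the deubiquitinase Usp28 of −0.54 and −0.15. Skp2, another ligase subunit, had −0.29 in HM and −0.92 in LM, and Aurka, a mitotic kinase that protects N-Myc, −0.59 and −0.85.

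Of the targets of the Mondo factors, which pair with Mlx, Txnip was expressed and Arrdc4 was below an FPKM of 1. Txnip, an inhibitor of thioredoxin and of glucose uptake, stood at 0.860 FPKM in HM_Ctrl and 5.73 in HM_DFX, and at 6.39 in LM_Ctrl and 32.3 in LM_DFX. It was past 2-fold in all 4 comparisons, higher with DFX in both clones and higher in LM than in HM under both treatments.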

How the data were processed

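RNA of 4 cultures was measured, 1 library each for HM_Ctrl, HM_DFX, LM_Ctrl and LM_DFX, assigned by their labels. Per the methods, poly(A) RNA was selected for directional libraries, and depletion of ribosomal RNA is also mentioned. FastQC, Trimmomatic, HISAT2, featureCounts and build mm10 are named in the methods or the submitters' processing notes. Versions and the use of strand are not given in the sources used here. The authors deposited FPKM for 49585 genes without a filter on low values.

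Fragments were recovered with exon lengths of GENCODE M21. Of 21067 genes above 0, 17750 came out whole within 0.02 in all 4 libraries, and 3309 within 0.005 at an exon length fitted to the gene itself, among them Max and Mxd3. Recovered fragments were used for depth and counting intervals only (Poisson for a level, Clopper–Pearson for a ratio, delta method for sums and for differences of responses). Fold changes used FPKM + 1, at a threshold of 2-fold among genes that reached 1 FPKM in some library. The code for calls and intervals was checked on simulated data. With 1 library per condition no significance test between conditions was run.

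The members, the 11 lists and the comparisons were chosen with earlier results of these data known. The lists come from general knowledge. Named genes were the members, examples set for each list, the largest rise and fall in HM_DFX against HM_Ctrl in lists of at least 10 expressed genes, and the 5 genes nearest to Myc. Pvt1 and the other genes past 2-fold were named after their values were seen, and Ptbp1 and Tfrc only to describe their list. Promoter windows are from RefSeq on GRCm38.p6. As alternatives, the pseudocount was set to 0.1, the filter was dropped or set on the mean, libraries were scaled by their median ratio to the geometric mean or by the 75th percentile, the threshold was set to 1.5-fold and 4-fold, and the repressor sum was widened. Python 3.11.15, pandas, NumPy and SciPy were used.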

Additional observations from a re-analysis of the deposited data

Results flagged for a closer look

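The DFX response of 13 of the genes and lists described here had opposite signs in 4T1-HM and 4T1-LM. The difference between the clones was not tested for any of them, since each response rests on 1 library per condition. Each value below is the log2 response of HM minus that of LM. Among the members Mlx had −0.34, with responses of −0.20 in HM and 0.15 in LM. The counting interval of its LM ratio included 1, and its HM response was −0.06 under median-ratio scaling. The median of the ribosome biogenesis list differed by 0.71 and that of the Sin3 and HDAC list by 0.055. Under median-ratio scaling the medians of the latter were 0.16 in HM and 0.02 in LM, no longer opposite. Of 63 named list genes, 10 were of this kind. The share of all expressed genes with opposite signs was not computed, so this count gives no result about the list genes. HM was the higher response for Ncl (0.64), Npm1 (0.31), Eif4e (0.54), Wdr5 (0.69), Fbxw7 (0.35) and Hdac2 (0.17). HM was the lower response for Gapdh (−2.18), Ndrg2 (−1.45), Eno1 (−0.62) and E2f1 (−0.31). The FPKM of Gapdh is uncertain because of its many near-identical pseudogenes. Its HM response was −0.90 under median-ratio scaling, under 2-fold. Ndrg2 rested on 2 fragments in LM_Ctrl, while E2f1 in HM and Hdac2 and Wdr5 in LM were each at −0.03. For these 3 genes and Eno1 the opposite signs were also lost under median-ratio scaling. No group held the 4 or more libraries that a search for outlying samples needs.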

How the results depend on the processing

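Counting error was the only error that could be given, and variation between cultures is unknown. No called value of a member changed sign under another pseudocount or scaling, and the sign of every member's log2 change was kept in all of these. The fold threshold moved the counts most. At 1.5-fold, 4 members were higher in HM_DFX against HM_Ctrl, 2 were lower in LM_DFX against LM_Ctrl, 1 was higher in HM_Ctrl against LM_Ctrl, and 3 were higher and 2 lower in HM_DFX against LM_DFX. Myc, at a log2 change of 0.93, joined Mycl and Mxd1 as higher in LM_DFX against LM_Ctrl at 1.5-fold. The shares of all expressed genes at 1.5-fold were 16% higher in the first of these comparisons, 16.5% higher and 20% lower in the second, 10.5% higher in the third, and 9.95% higher and 14.6% lower in the last. At 4-fold, 0 members were higher and 0 lower in HM_DFX against HM_Ctrl, and 1 was higher and 0 lower in LM_DFX against LM_Ctrl, beside 0.876% and 1.31%, and 1.42% and 1.06%, of all genes. A pseudocount of 0.1 gave 2 members lower in LM_DFX against LM_Ctrl, 1 higher in HM_Ctrl against LM_Ctrl, and 1 higher and 1 lower in HM_DFX against LM_DFX, beside 13.6%, 6.97%, 6.39% and 9.34% of all genes. Median-ratio scaling gave 1 member (Mxd4) higher in HM_DFX against LM_DFX, beside 3.92% of all genes, and added Myc to those higher in HM_DFX against HM_Ctrl.

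Over the 167 expressed listed genes, 10 were higher and 9 lower in HM_DFX against HM_Ctrl, 12 and 8 in LM_DFX against LM_Ctrl, 7 and 4 in HM_Ctrl against LM_Ctrl, and 2 and 1 in HM_DFX against LM_DFX. The shares of all expressed genes were 6.93% and 12.4%, 7.09% and 8.72%, 3.65% and 3.15%, and 3.31% and 5.05%. At 1.5-fold these became 30 and 26, 25 and 38, 12 and 13, and 10 and 9, and at 4-fold 2 and 2, 6 and 3, and 1 and 0 for the first 3 comparisons, with 0 higher in the last. Median-ratio scaling gave 17 higher and 6 lower in HM_DFX against HM_Ctrl, beside 8.9% and 10.1% of all genes, and 4 higher in HM_DFX against LM_DFX, and a pseudocount of 0.1 gave 13 lower in LM_DFX against LM_Ctrl and 4 higher in HM_DFX against LM_DFX. With Mxi1 and Mga added, the ratio of repressors to the Myc family was 0.371 in HM_Ctrl and 0.238 in HM_DFX, against 0.286 in LM_Ctrl and 0.282 in LM_DFX. Median-ratio scaling turned the sign of the translation and folding median and of the activated lists together in HM, and of the Sin3 and HDAC median in LM. The cause of these shifts was not tested. No paired analysis was possible because each condition has 1 library and the labels give no replicate numbers. The low depth of Mycl, with 32 fragments in HM_Ctrl, and of Mxd3, with 51 in HM_DFX, limits their ratios.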
